A study of Mus musculus with 3 samples.

Results

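The endoplasmic reticulum (ER) folding, disposal and stress response genes of mouse skin were examined for a difference between uncv null mice and a wild type sister. The set holds 35 genes named for these roles, and each gene was read from its brightest probe set that is annotated with exactly 1 gene symbol. All 35 had such a probe set, of 18193 genes that had one in the series. Genes were tested where their log2 level averaged 5 or more, and 33 of the 35 passed, among 8456 tested genes. Ddit3 and Trib3 fell below that level. The samples were dorsal skin of 4-day-old female BALB/cA mice, with 1 wild type (uncv +/+) and 2 uncv null (uncv -/-) animals born as sisters to uncv heterozygous parents. No treatment is named for any of them. The mutation is in the germline and not limited to a cell type of the skin. The labels do not say whether the RNA of each array came from separate preparations. Litter-mates were told apart by their whiskers or by PCR, per the series' design text.

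Proteins that enter the secretory pathway are folded in the ER by chaperones such as BiP, by lectins that read their sugars, and by oxidoreductases that form their disulfide bonds. Proteins that fail to fold are drawn back to the cytosol and degraded, a route called ER-associated degradation (ERAD). When unfolded proteins build up, 3 membrane sensors, IRE1, PERK and ATF6, start the unfolded protein response, which raises the transcription of chaperone and ERAD genes through the factors XBP1, ATF4 and cleaved ATF6. Skin relies on this machinery in fibroblasts, which secrete collagen, and in differentiating keratinocytes, which export lipids and proteases. The uncv (uncovered) mutation lies in Rhbdf2, the gene of iRhom2, a rhomboid without protease activity. iRhoms are ER membrane proteins that escort the protease ADAM17 out of the ER. The series compares null with wild type skin, and here that comparison is read for the transcripts of ER quality control.

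Many of these genes are known to share the ER stress response element (ERSE), to which ATF6 binds together with NF-Y. RefSeq promoters (GRCm38.p6, 250 bases before to 50 after the start site) were matched for 31 of the 35 genes, and both strands were searched. Hyou1, Manf, Atf6 and Derl1 had no entry. The ERSE letters searched were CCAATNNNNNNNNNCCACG, and 8 of the 31 genes (25.8%) held them, against 0.137% of all 27025 genes with a promoter of that length. The matches are shown because they are the letters that these 8 genes have in common. They are written 5′ to 3′ in the motif's direction with the fixed bases in capitals.
Hspa5: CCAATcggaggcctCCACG
Hsp90b1, farther from the start: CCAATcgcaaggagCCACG
Hsp90b1, nearer to the start: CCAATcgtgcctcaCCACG
Calr: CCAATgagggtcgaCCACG
Canx: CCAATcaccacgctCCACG
Dnajc3: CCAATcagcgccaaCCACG
Pdia6: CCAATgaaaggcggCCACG
Creld2: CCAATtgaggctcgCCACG
Syvn1: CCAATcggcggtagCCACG

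The shorter ERSE-II (ATTGGNCCACG) was found in 2 of the 31 genes (6.45%), against 0.0444% of all genes with a promoter. They are the BiP co-chaperone gene Dnajb11 and Herpud1, whose product anchors ERAD complexes. Its letters do not contain the longer motif, so no match was counted under both.
Dnajb11: ATTGGcCCACG
Herpud1: ATTGGgCCACG
The element bound by XBP1, searched as TGACGTGG, was found in Vcp alone (3.23% of the 31 genes, beside 0.714% of all genes with a promoter). A core of the element bound by ATF4 with C/EBP partners, searched as TGATGNAA, was found in Trib3 and Herpud1. They are 6.45% of the 31 genes, beside 4.51% of all genes with a promoter. These are matches of letters in a window and were not read as sites in use.

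Whole promoters of 3 genes show how the matches lie. Hspa5 encodes BiP and is the usual reporter of ER stress, Hsp90b1 holds the motif on both strands, and Syvn1 is the ERAD gene that stood above wild type by the widest margin among those with a match. Motif bases that were required to match are in capitals.
Hspa5 (chr2:34771840-34772139, plus strand): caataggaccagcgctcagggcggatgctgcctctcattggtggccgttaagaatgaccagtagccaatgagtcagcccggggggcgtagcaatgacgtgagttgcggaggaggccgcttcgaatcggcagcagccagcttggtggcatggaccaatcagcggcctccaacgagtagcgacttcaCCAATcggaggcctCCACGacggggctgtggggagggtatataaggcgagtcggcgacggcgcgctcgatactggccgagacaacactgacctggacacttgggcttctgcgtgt
Hsp90b1 (chr10:86705395-86705694, minus strand): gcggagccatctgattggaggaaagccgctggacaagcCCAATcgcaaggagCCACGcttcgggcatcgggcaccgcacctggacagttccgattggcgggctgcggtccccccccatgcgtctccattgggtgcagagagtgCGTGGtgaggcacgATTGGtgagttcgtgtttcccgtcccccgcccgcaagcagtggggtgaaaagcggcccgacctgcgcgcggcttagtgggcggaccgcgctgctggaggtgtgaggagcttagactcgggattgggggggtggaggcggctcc
Syvn1 (chr19:6046326-6046625, plus strand): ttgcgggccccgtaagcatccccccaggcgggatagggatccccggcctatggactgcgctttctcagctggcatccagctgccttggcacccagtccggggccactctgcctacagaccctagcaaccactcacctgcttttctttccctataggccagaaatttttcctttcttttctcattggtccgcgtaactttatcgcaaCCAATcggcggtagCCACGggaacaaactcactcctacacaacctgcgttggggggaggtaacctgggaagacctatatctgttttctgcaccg
The Hspa5 match runs from -65 to -47 relative to the start site, and that of Syvn1 from -44 to -26. In the 10 genes with either element, differences from wild type (uncv null mean minus wild type, log2) ran from -0.22 for Hsp90b1 to 0.35 for Syvn1, with a median of 0.0089. The 19 tested genes whose promoter held neither had a median of -0.046 and ran from -0.40 to 0.41. Outside the set, 9 further tested genes held one of the elements, and their median was 0.0032. These splits were made after the values were known and were not tested.

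**Figure D1:**
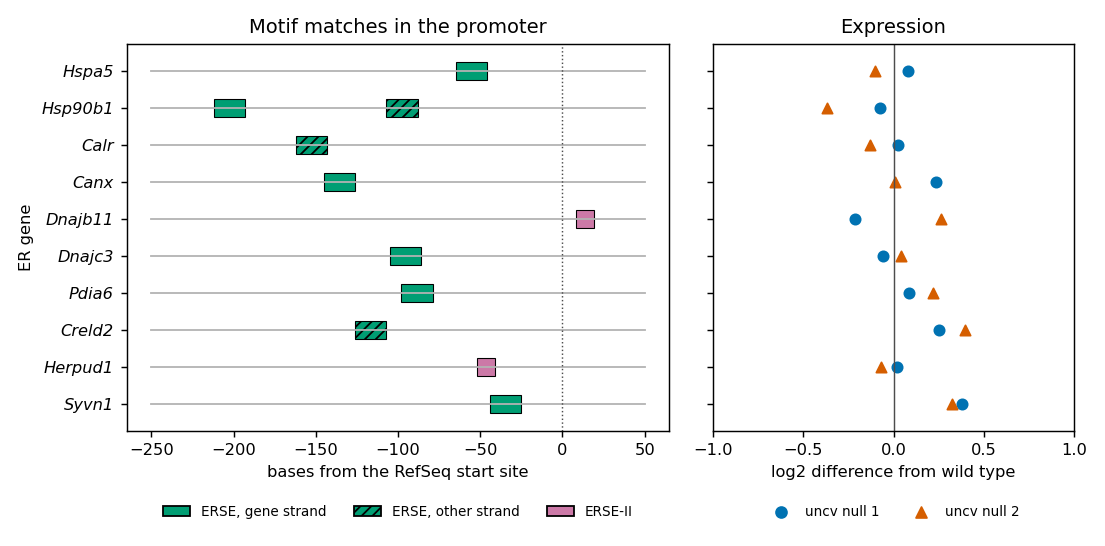
Positions of ERSE and ERSE-II matches in bases from the RefSeq start site (left, boxes; hatched boxes lie on the other strand) beside the log2 difference of each uncv null array from wild type (right, points) for the 10 genes with a match. The first match starts at -212 and only that of Dnajb11 lies past the start site, and the differences stay within 0.40 log2 units of wild type on both sides.

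The tissue label was checked against its markers. All 8 keratinocyte markers and all 7 dermal fibroblast markers passed the filter. The skeletal muscle markers passed too, and 7 of 8 lay below wild type in both uncv null arrays, with a median of -0.68. All 4 measured white adipocyte markers lay above, with a median of 0.86, and keratinocyte markers had a median of 0.042. All 6 hair shaft markers lay below wild type in uncv null 1 and above it in uncv null 2, with medians of -0.41 and 0.19. Median differences were 0.55 for 4 sebaceous gland, 0.21 for 6 macrophage and -0.083 for 5 mast cell markers. They were -0.077 for 4 endothelial and -0.92 for 2 Schwann cell markers. The part of the tissue's cell makeup in the ER values was not tested. In whole skin, fewer cells of a type and less RNA per cell cannot be told apart. The uncv null 1 array stood apart in its control probe sets. Those for 18S ribosomal RNA averaged 7.93 there, against 3.59 and 4.26 on the wild type and uncv null 2 arrays. The 3′ Actb control exceeded the 5′ one by 1.23 there, against 0.66 and 0.79. Rhbdf2 itself was not lower in the null arrays, at 6.29 and 6.49 against 5.83, and since the position of its probe set in the gene was not examined, this does not check the genotype.

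Across all roles the ER genes stayed close to wild type. Of the 33 tested, 11 exceeded wild type on both null arrays, where 38.8% of all tested genes did, and 9 lay below in both, where 26.4% did. In the other 13 the wild type value fell between the uncv null values, as for 34.8% of all genes. The balance turned under other settings, to 10 above and 13 below after another quantile normalization and 9 and 12 after median centring. It was 8 and 11 with probe sets averaged, and 7 and 11 without _s_at and _x_at probe sets. Those types can match several transcripts or genes, and the _a_at type was kept. Median centring moved every gene of an array alike, by 0.018 for wild type, 0.046 for uncv null 1 and -0.063 for uncv null 2. Shares over all genes are not set beside these alternative counts here, so the turn was not read as particular to the ER genes. The median difference was -0.010, or -0.0075 and 0.033 for uncv null 1 and 2, beside 0.036 over all tested genes (0.025 and 0.066 for uncv null 1 and 2). None reached 2-fold (1 log2 unit) in both arrays, where 0.52% of all genes did, and 32 of 33 had a mean difference under 0.5 log2 units, against 89.8% of all genes. By limma, 0 of the 33 passed the adjusted threshold of 0.05 (adjusted p = 0.9996 for each) and 0 had an unadjusted p under 0.05, where 2.9% of all tested genes had one (1.58% higher and 1.31% lower). Over all tested genes 0% passed the adjusted threshold. With 1 wild type array the design has little power, since an exact permutation of the 3 arrays cannot give a one-sided p below 0.333. The test's error was a median SE of 0.26 over the ER genes. The 95% intervals take the wild type array to vary like the others and are wide, so that a missing call does not show equal expression.

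**Figure D2:**
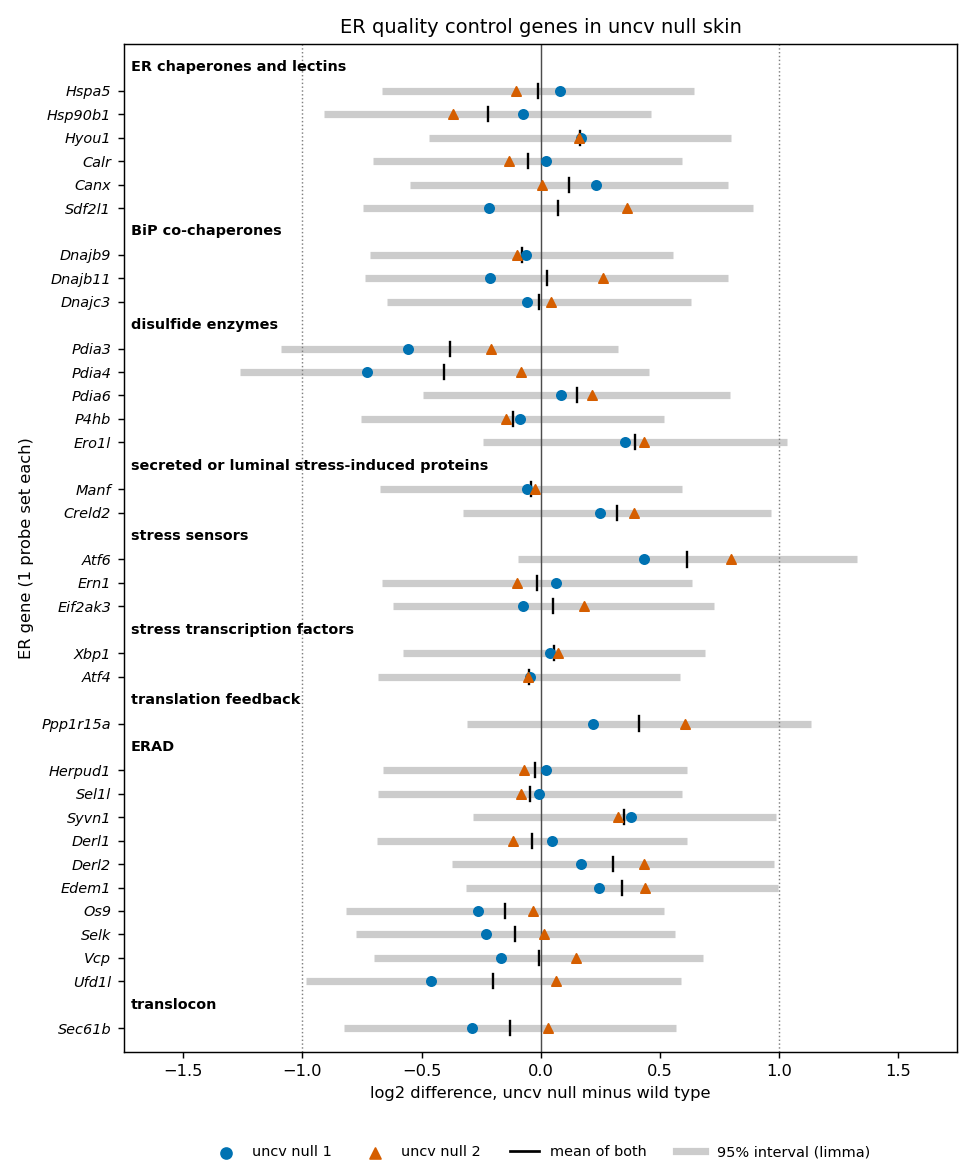
Log2 difference from wild type (horizontal axis) of the 33 tested ER genes, grouped by role (vertical axis), for uncv null 1 (circles) and uncv null 2 (triangles), with the mean of both (black ticks) and limma's 95% interval (grey bars; 1 wild type and 2 uncv null arrays). Every interval includes 0, and no gene lies beyond 1 log2 unit (dotted lines) in either array.

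The gap between the 2 null arrays was of the same order as the distance from wild type. The uncv null arrays differed from each other by a median of 0.19 log2 units over the ER genes, while their mean differed from wild type by a median of 0.12 in size. Over all tested genes these values were 0.22 and 0.17. For 18 of the 33 ER genes (54.5%) the distance from wild type was the smaller value, against 57.5% of all genes. Of the ER genes, 17 lay below wild type in uncv null 1 (51.5%, beside 46.5% of all genes). For uncv null 2 it was 14 (42.4%, beside 41.2%).

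**Figure D3:**
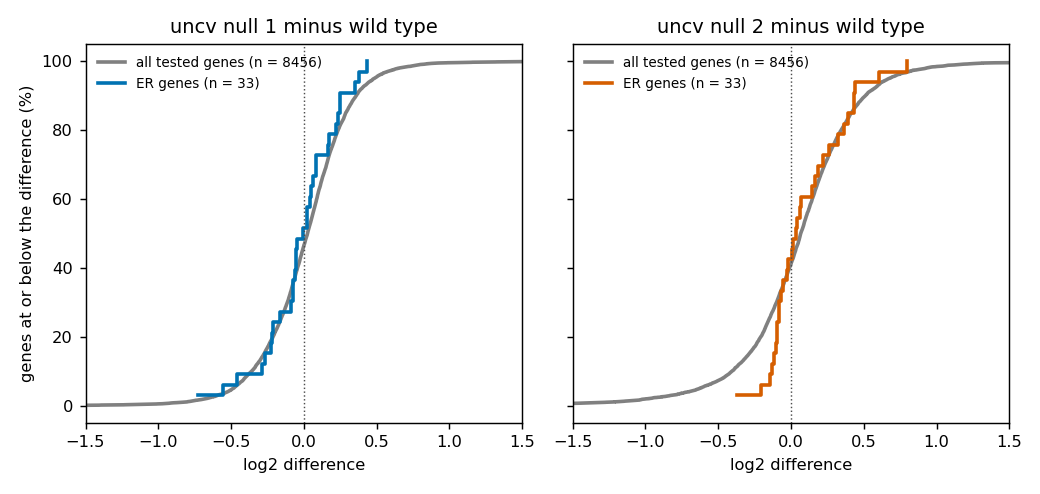
Cumulative share of genes (vertical axis, %) at or below a given log2 difference from wild type (horizontal axis) for the 33 ER genes (coloured steps) and all 8456 tested genes (grey line), with 1 panel per uncv null array. The steps cross 0 near the middle of their range in both panels, at 51.5% (left) and 42.4% (right).

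Among the chaperones and lectins, 2 lay above wild type in both arrays, Hyou1 and Canx, and 1 below, Hsp90b1. Hspa5, which encodes the central ER chaperone BiP and keeps the stress sensors silent while it is bound to them, read 9.91 in the wild type array and 9.99 and 9.81 in uncv null 1 and 2 on the log2 scale. The wild type value lay between the null values, and the mean difference was -0.010 ± 0.26 (± the SE of the limma fit throughout, 1 against 2 arrays) with a 95% interval of -0.67 to 0.64. Hsp90b1, the ER member of the HSP90 family, read 9.29, 9.22 and 8.92 in the same order. Both null arrays were lower, with a mean difference of -0.22 ± 0.28. Here uncv null 2 was the farther from wild type, but its second probe set differed by -0.78 and -0.20 in uncv null 1 and 2, a mean of -0.49 with uncv null 1 the farther. Hyou1, a large chaperone that acts as a nucleotide exchange factor for BiP, read 8.21, 8.38 and 8.38. The null arrays were nearly equal and the difference was 0.17 ± 0.26, but without _s_at and _x_at probe sets it was -0.079. The lectin chaperones of the calnexin cycle hold glycoproteins that still carry a terminal glucose. Calr, the soluble one, read 10.35, 10.37 and 10.22, and wild type lay between the null values. Canx, its membrane-bound relative, read 9.67, 9.90 and 9.67, where uncv null 2 was equal to wild type within the rounding and the mean difference of 0.12 ± 0.27 depended on the probe set, as given below. Sdf2l1, a stress-induced partner of BiP complexes, read 5.88, 5.67 and 6.25. Its null arrays lay on opposite sides of wild type, 0.58 log2 units apart.

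The co-chaperones, J-domain proteins that drive BiP's ATP cycle, had mean differences under 0.1 log2 units. Dnajb9, also called ERdj4 and a known XBP1 target that favours the inactive state of IRE1, read 7.49 in the wild type array and 7.43 and 7.39 in uncv null 1 and 2. Both null arrays were lower by a small margin, and the difference was -0.080 ± 0.26. Dnajb11 read 6.89, 6.68 and 7.15 and Dnajc3, also called p58IPK, 6.93, 6.87 and 6.97. In these, uncv null 1 lay below and uncv null 2 above wild type, with mean differences of 0.025 and -0.0069.

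The enzymes of disulfide formation held both the lowest mean differences and one of the highest. Pdia4, a protein disulfide isomerase with an additional thioredoxin domain, read 7.20 in the wild type array and 6.47 and 7.12 in uncv null 1 and 2. The difference of -0.40 ± 0.35 came mostly from uncv null 1, since uncv null 2 was only 0.081 below wild type. Pdia3, the isomerase that works with the lectin chaperones, read 10.83, 10.28 and 10.63 and differed by -0.38 ± 0.29, again with uncv null 1 the lower. That array also had the high 18S and 3′ to 5′ controls, and the part of RNA quality in these values was not tested. P4hb, which is the founding isomerase and also a subunit of collagen prolyl hydroxylase, read 10.53, 10.44 and 10.39. Its null arrays lay close together, -0.12 ± 0.26 from wild type. Pdia6, which reduces active IRE1, read 8.44, 8.52 and 8.66, both above wild type. Ero1l (now Ero1a), the oxidase that supplies the isomerases with disulfides, read 7.77, 8.13 and 8.21. Its difference was 0.39 ± 0.26 and the null arrays lay 0.082 apart. The other probe sets differed by -0.076 and 0.49 and by -0.28 and 0.59 in uncv null 1 and 2, so that uncv null 1 was below wild type in both and the null arrays were farther apart. For the brightest probe set the 95% interval of -0.24 to 1.03 included 0 and the limma adjusted p was 0.9996.

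Of the small luminal proteins known as sensitive reporters of ER stress, Manf lay close to wild type and Creld2 above it. Manf, which is secreted and binds BiP, read 8.54 in the wild type array and 8.48 and 8.51 in uncv null 1 and 2, a difference of -0.040 ± 0.26. Creld2, a disulfide-exchange partner in the ER, read 6.84, 7.09 and 7.23. Both null arrays were higher, by 0.32 ± 0.26 on average, and its probe set was the only one annotated to it.

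The sensors differed among themselves. Atf6, whose membrane-bound product is cut in the Golgi to release a transcription factor, read 5.12 in the wild type array and 5.55 and 5.92 in uncv null 1 and 2. It had the largest mean difference of the ER genes, 0.62 ± 0.29 or 1.53-fold, with both null arrays higher, a 95% interval of -0.097 to 1.33 and a limma unadjusted p of 0.0786 (adjusted p = 0.9996). With no filter on dim probe sets the unadjusted p was 0.0424 and the adjusted p 0.9999. The Atf6 values are dim, only just above the filter in wild type, and 2 further Atf6 probe sets did not pass it. They read 4.26, 4.00 and 4.63 and 3.84, 3.82 and 4.10, where uncv null 1 was not above wild type in either. Ern1, which encodes the kinase and RNase IRE1, read 5.80, 5.86 and 5.70, and Eif2ak3, which encodes the kinase PERK, 5.87, 5.80 and 6.05. Wild type lay between the null values in both, with mean differences of -0.017 and 0.054. Activation of these sensors occurs by cleavage, phosphorylation and splicing, which transcript levels do not measure.

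Of the transcription factors downstream of the sensors, Xbp1 and Atf4 stayed within 0.1 log2 units of wild type at their brightest probe sets, though not at every other one. Xbp1, whose mRNA is spliced by IRE1, read 9.76 in the wild type array and 9.80 and 9.83 in uncv null 1 and 2, so that all 3 arrays lay within 0.071 log2 units. The mean differences of its other probe sets ran from 0.014 to 0.61. Atf4, which is controlled mainly by translation, read 9.07, 9.02 and 9.02, a difference of -0.050 ± 0.26. A second, possibly less specific Atf4 probe set read 7.60, 7.45 and 7.09, a mean difference of -0.33 with uncv null 2 the lower. Ddit3, which encodes the pro-apoptotic factor CHOP, is a transcript that rises strongly under lasting ER stress. It read 4.87, 4.93 and 4.78, below the filter, and was not tested. Its mean of 4.86 lay just outside the limit of 5, where Atf6, with a mean of 5.53, was the nearest inside.

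The feedback genes of the PERK branch stood higher in both null arrays. Ppp1r15a, also called GADD34, directs the phosphatase that restores translation. Its values were 6.03 in the wild type array and 6.25 and 6.64 in uncv null 1 and 2, a difference of 0.41 ± 0.29, close to the 0.39 between the null arrays. Without uncv null 1 it was 0.60 and without uncv null 2 it was 0.22. Trib3, a pseudokinase induced by ATF4 and CHOP, was below the filter at 4.32, 4.86 and 4.51 and was not tested.

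The ERAD genes are ordered here from the membrane complex outward. The ubiquitin ligase Syvn1, also called HRD1, read 6.18 in the wild type array and 6.56 and 6.50 in uncv null 1 and 2. Both null arrays were higher, by 0.35 ± 0.26, and without _s_at and _x_at probe sets the value was 0.10. Its partner Sel1l read 6.89, 6.88 and 6.80, a difference of -0.046 ± 0.26. Edem1, a lectin-like protein that marks misfolded glycoproteins for disposal, read 6.18, 6.43 and 6.62 and differed by 0.34 ± 0.27. Derl2, a rhomboid-like protein of the retrotranslocation channel and hence a distant relative of the iRhoms, read 7.17, 7.34 and 7.60 and differed by 0.30 ± 0.27. At these probe sets the null arrays were higher and uncv null 2 the farther. A second Derl2 probe set went the other way, at 5.35, 4.85 and 5.42 and a mean difference of -0.22, with uncv null 1 the low array. The related Derl1 read 8.54, 8.59 and 8.42, with wild type between the null values. Herpud1, normally one of the most inducible ERAD genes, read 6.65, 6.67 and 6.58, a difference of -0.024 ± 0.26. Os9, a lectin that delivers substrates to the ligase, read 7.07, 6.81 and 7.04, a difference of -0.15 ± 0.27.

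The genes of the extraction machinery and the entry channel shared one pattern, with uncv null 1 below and uncv null 2 above wild type. It was not particular to them, since Sdf2l1, Dnajb11, Dnajc3 and Eif2ak3 had it too. Over all tested genes, wild type lay between the null values in 34.8%, counting either order. Vcp, the ATPase that pulls substrates from the membrane, read 9.84 in the wild type array and 9.68 and 9.99 in uncv null 1 and 2. Ufd1l (now Ufd1), its ubiquitin-binding cofactor, read 7.15, 6.69 and 7.21, where uncv null 1 was 0.46 lower and uncv null 2 slightly higher than wild type. Selk (now Selenok), an ER membrane selenoprotein that binds derlins, read 8.30, 8.07 and 8.31. Sec61b, a subunit of the channel through which new proteins enter the ER, read 9.15, 8.86 and 9.19. For Vcp, Ufd1l, Selk and Sec61b the mean difference was below 0, though that of Vcp changed sign after another quantile normalization. Mean differences ran from -0.20 for Ufd1l to -0.009 for Vcp.

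Several ER genes are covered by more than 1 tested probe set, and these did not always give the same answer. In 6 of 17, a further probe set had a mean difference of the opposite sign to the one that stands for the gene (Canx, Derl1, Derl2, Dnajc3, Hyou1 and Sel1l). That count was not made over all genes with several tested probe sets, so it was not read as particular to the ER genes. Of the 17 such genes, the range of differences within a gene had a median of 0.45 and 0.36 log2 units for uncv null 1 and 2, beside 0.34 and 0.23 over all 2820 such genes. Canx had the widest range in uncv null 1. Its representative probe set 1415692_s_at read 9.67, 9.90 and 9.67 across the arrays in the order used above, while 1422845_at read 8.18, 7.12 and 8.03. The second probe set was thus lower by more than 1 log2 unit in uncv null 1 and nearly level in uncv null 2. With the mean of its probe sets the Canx difference was -0.044, and without _s_at and _x_at probe sets it was -0.60. Sel1l behaved in a like way at 1430692_a_at, which read 5.77, 4.80 and 5.90, and Derl1 at 1423082_at, which read 7.32, 6.65 and 7.60.

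Low values were more frequent in uncv null 1. Of 29 tested ER probe sets that did not represent their gene, 22 were lower than wild type on the uncv null 1 array (75.9%), and 12 on that of uncv null 2 (41.4%). The same shares over all 4083 such probe sets were 60.2% and 43.4%. The array with these low values is the one with the high 18S and 3′ to 5′ control values given above, and their part in it was not tested. The opposite case was Xbp1, where the dim 1420012_at read 4.71, 5.70 and 4.93, high in uncv null 1, while its other 3 tested probe sets differed by at most 0.25 in that array. Which Xbp1 transcript form each probe set reads was not examined. For Hspa5, all 3 probe sets were below wild type in uncv null 2, by 0.10, 0.27 and 0.79, and with their mean the Hspa5 difference was -0.26. Every tested probe set of Calr, Hsp90b1 and Atf4 was below wild type in uncv null 2 too. Ero1l, Edem1, Dnajc3, Derl2 and Selk were higher in uncv null 2 in every tested probe set, and of these only Edem1 in both null arrays. Such agreement was not counted over all genes.

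**Figure D4:**
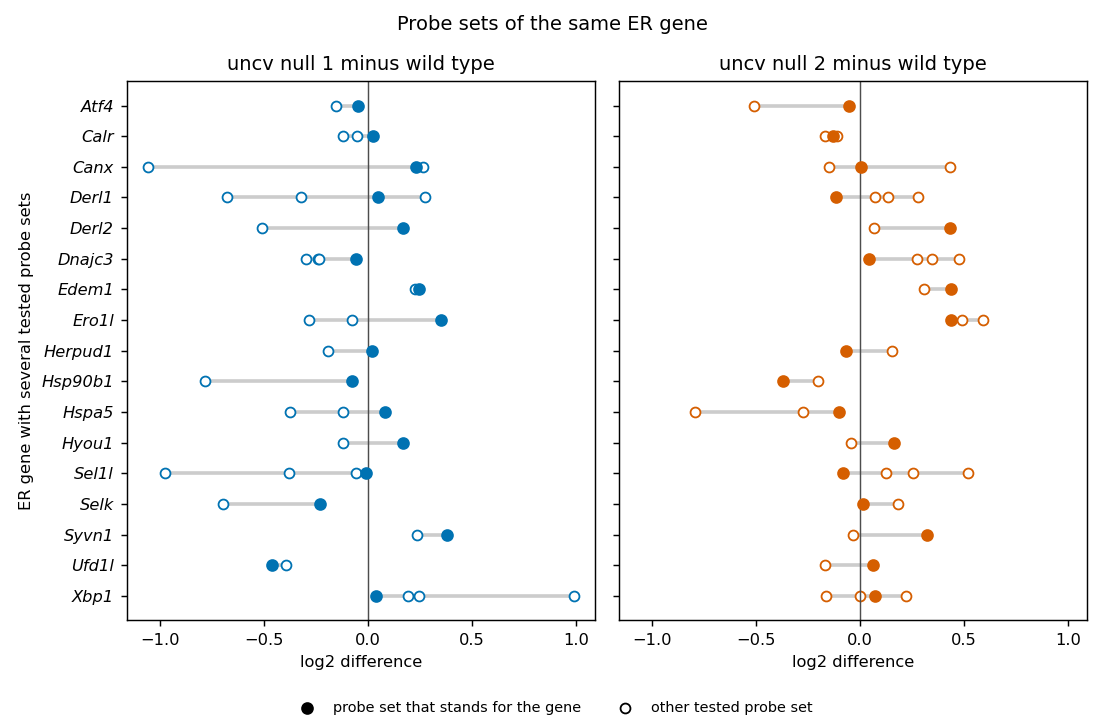
Log2 difference from wild type (horizontal axis) of every tested probe set of the 17 ER genes that have several (vertical axis), with 1 panel per uncv null array. Filled points are the probe sets that stand for the gene, open points the others, and grey lines join a gene's extremes. Open points of Canx, Sel1l, Hsp90b1, Selk and Derl1 lie farther to the left in uncv null 1 than in uncv null 2.

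The rest of the pathway was read from lists of further genes. Of the other ER folding genes, 8 of 25 measured genes exceeded wild type on both null arrays and 10 were lower on both. Over all tested genes the shares were 38.8% and 26.4%. The medians of the folding genes were -0.00018 and -0.14 for uncv null 1 and 2. The genes farthest from wild type were Fkbp7, Serpinh1 and Fkbp14, all lower. Serpinh1, the collagen chaperone HSP47, read 9.98 in the wild type array and 9.33 and 9.23 in uncv null 1 and 2, a difference of -0.71 ± 0.26 (limma unadjusted p = 0.0358, adjusted p = 0.9996). The null arrays were both lower by a margin far above the gap between them. The ER prolyl isomerases Fkbp7 and Fkbp14, the latter known for acting on collagen, read 7.84, 7.34 and 6.94 and 6.85, 6.57 and 6.02. Ppib, the cyclophilin of the collagen prolyl hydroxylation complex and with Serpinh1 the brightest of this list, read 10.93, 11.18 and 10.93, with wild type equal to uncv null 2 to the first decimal. Dermal fibroblast markers lay below wild type in both arrays for 6 of 7 genes, the exception being Thy1 at 8.16, 8.66 and 8.68. The mean log2 level of the 7 markers was 10.91 for wild type and 10.88 and 10.62 for the null arrays. Col1a1 read 11.79, 11.66 and 11.13. The part of fibroblast content in the folding genes was not tested.

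Targets of ATF4 and the integrated stress response were counted next, since this arm can be active without the chaperone arm. In that list, 15 of 28 measured genes exceeded wild type on both null arrays and 2 were lower on both, or 53.6% and 7.14%, beside 38.8% and 26.4% of all tested genes. With probe sets averaged, the counts were 11 and 3 of 28, and 3085 of 8456 genes in all were above. The medians were 0.045 and 0.29 for uncv null 1 and 2, so that the distance from wild type lay mostly in uncv null 2. Without uncv null 1, 26 of the 28 lay above wild type, and without uncv null 2, 15 above and 13 below. Below wild type lay 7.14% in uncv null 2 and 46.4% in uncv null 1, beside 41.2% and 46.5% of all tested genes. Asns, asparagine synthetase, read 7.17 in the wild type array and 7.44 and 7.97 in uncv null 1 and 2. Slc3a2, the heavy chain of amino acid exchangers, read 8.24, 8.62 and 8.98. Both null arrays were higher for these genes, by 0.54 ± 0.32 and 0.55 ± 0.29 on average, and neither passed the test. The lipoprotein receptor gene Vldlr, also induced by ATF4, was lower at 6.53, 6.21 and 5.38, and the other gene below wild type in both arrays, named after its value was seen, was Aldh18a1 at 7.27, 7.22 and 6.87. The tRNA synthetase genes Nars and Sars, the brightest of the list, differed by 0.099 and 0.016.

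Among other ERAD genes, 12 of 24 measured genes exceeded wild type on both null arrays and 2 were lower on both, the latter being Sels (now Selenos) and Herpud2, named after their values were seen. Over all tested genes the shares were 38.8% and 26.4%. With probe sets averaged, the counts were 8 and 3 of 24, beside 3085 and 2352 of 8456 genes in all. The medians were 0.063 and 0.18 for uncv null 1 and 2. Faf2, Nploc4 and Erlin1 led the list, at 0.49, 0.38 and 0.37. Faf2 and Nploc4 encode partners of the Vcp ATPase, and their values were 5.81, 6.23 and 6.37 for Faf2 and 6.79, 6.86 and 7.47 for Nploc4. The brightest, Ubqln1 and Ube2g1, differed by 0.070 and 0.0014. For the translocon, signal peptidase and oligosaccharyl transferase genes, 8 of 23 measured genes exceeded wild type on both null arrays and 9 were lower on both. The signal peptidase subunits Spcs3 and Spcs2 stood on opposite sides of wild type, at 0.28 and -0.24. Sec62 of the translocon was at 0.27, while Ssr1 and Stt3b, the brightest, were at -0.13 and 0.11. The largest difference in size here was 0.28.

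Other sensors and regulators were mixed. In that list 4 of 18 measured genes exceeded wild type on both null arrays and 7 were lower on both. Over all tested genes the shares were 38.8% and 26.4%. Map3k5, the stress kinase ASK1 that IRE1 can recruit, read 5.12 in the wild type array and 5.64 and 6.04 in uncv null 1 and 2, a difference of 0.72 ± 0.29, and was about as dim in wild type as the Atf6 probe set. Creb3l1, a transcription factor cut like ATF6 and known for driving collagen secretion in bone, was at -0.35, and Tmbim6, an ER membrane regulator of calcium and of IRE1, at 0.25. Rtcb, the ligase that completes Xbp1 splicing, was at -0.041. The other genes above wild type in both arrays, named after their values were seen, were Ppp1r15b at 0.15 and Nfyc at 0.042. In ER-to-Golgi transport, 6 of 27 measured genes exceeded wild type on both null arrays and 10 were lower on both. Preb, which activates the COPII coat, was at 0.50, the KDEL receptor Kdelr3 at -0.44 and the Golgi matrix protein gene Golga2 at 0.39. The brightest, Kdelr2 and Sar1b, were at 0.028 and 0.063.

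The cytosolic heat shock genes, the counterpart of the ER response outside the organelle, gave 7 above and 7 below wild type in both arrays of 19 measured. Hspa4l was at 0.64, Cryab, which muscle also expresses strongly, at -0.54 and Hspa8 at -0.30. The brightest, Hspb1 and Hsp90aa1, were at 0.21 and -0.27. The list of iRhoms, other rhomboids, Frmd8 and the proteases Adam17 and Adam10 had the highest median of the pathway lists, 0.38. In it, 7 of 8 measured genes, the mutated Rhbdf2 among them, were above wild type in both arrays, beside 38.8% of all tested genes. Rhbdl2 and Adam17 were at 0.57 and 0.49, beside Rhbdf2 at 0.56, while the brightest, Adam10 and Rhbdf1, were at 0.17 and 0.10. All of these genes failed the limma adjustment over all tested probe sets (adjusted p = 0.9996).

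**Figure D5:**
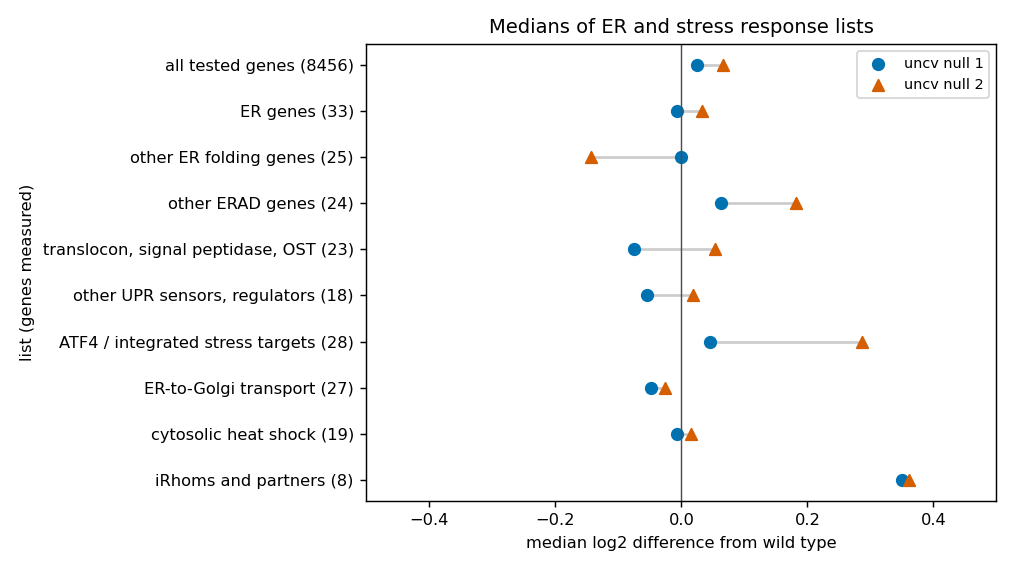
Median log2 difference from wild type (horizontal axis) of each list, with the number of measured genes in brackets (vertical axis), for uncv null 1 (circles) and uncv null 2 (triangles). The ER genes sit at -0.0075 and 0.033 beside 0.025 and 0.066 for all tested genes, while the triangle of the ATF4 list lies at 0.29.

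Plasma cells hold much ER, so their markers were read as well. Jchain, the immunoglobulin joining chain, read 2.96, 2.65 and 2.73, and Mzb1, an ER protein of antibody-secreting cells, 3.60, 3.90 and 3.67. With Tnfrsf17 and Irf4 they were below the filter, and the 2 plasma cell markers that passed, Sdc1 and Prdm1, are also expressed by keratinocytes. Of the 7 neutrophil markers 2 passed, S100a8 and S100a9, which stressed keratinocytes make too. S100a8 read 5.69, 6.85 and 8.47 and S100a9 4.81, 6.33 and 8.11, both at least 1 log2 unit above wild type in each null array, with mean differences of 1.97 ± 0.64 and 2.41 ± 0.69 (limma unadjusted p = 0.0232 and 0.0143, adjusted p = 0.9996). The other neutrophil markers with a probe set were below the filter. Elane and Mpo read 3.86, 3.82 and 3.60 and 3.52, 3.79 and 3.58. Csf3r and Cxcr2 read 4.02, 4.06 and 4.48 and 3.28, 3.56 and 3.46. All but Elane lay above wild type in both null arrays, at these dim levels, and neutrophil content was not tested.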

How the data were processed

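Total RNA of dorsal skin was labelled with biotin and hybridised to 1 single-colour array per sample, 3 in all. The deposited values are log2 expression values per probe set made with RMA, per the submitters' processing notes; neither its software and version nor its background model was given in the sources used here. RMA equalises the arrays' intensity distributions, so a change common to all transcripts would be removed, and the number of arrays limits the precision. Of 45101 probe sets, 34945 had 1 gene symbol in the platform annotation, 932 several and 9160 none, and 64 were controls. The annotation lists Ero1l, Selk and Ufd1l as Ero1a, Selenok and Ufd1, matched through the RefSeq gene table (GRCm38.p6).

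Differences were fitted with limma 3.58.1 in R 4.3.3 (lmFit, eBayes without trend) over the 13559 probe sets with a mean of at least 5, and Benjamini-Hochberg adjusted over all of them at 0.05. The spread has 1 residual and 4.75 prior degrees of freedom. P-values rest on the gap between the 2 uncv null arrays, moderated over probe sets, and no spread among wild type arrays was measured. The fit was run on simulated data with changes far larger than any ER gene difference here. That run does not show whether differences of the size seen here would be found. Every ER gene is named; of each further list, the 3 measured genes farthest from wild type and the 2 brightest. Members and lists were chosen with earlier results of these data known, so lists are described by counts and medians without a test. Alternatives were other filters, a mean of probe sets, other normalizations, an intensity trend, leaving out each uncv null array and, chosen after seeing the data, leaving out _s_at and _x_at probe sets, which can match several transcripts or genes.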

Additional observations from a re-analysis of the deposited data

Results flagged for a closer look

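The 18S ribosomal RNA control probe sets, which enter none of the comparisons, averaged 4.34 log2 units more in uncv null 1 than in wild type, and were singled out because a signal outside the measured genes stood above the level of the wild type array. In uncv null 2 they read 4.26, against 3.59 in wild type.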

How the results depend on the processing

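No ER gene passed limma's adjusted threshold under any of the 7 alternatives with a test (smallest adjusted p = 0.9985), and the median over ER genes stayed between -0.037 and -0.010 in them. Of 218 gene differences in these alternatives, 7 changed sign, in 5 genes that all lay within 0.17 of wild type: Canx at -0.044 with the mean of probe sets and -0.60 without _s_at and _x_at probe sets, Hyou1 at -0.079 without the latter, Dnajc3 at 0.039 with the mean of probe sets, Dnajb11 at -0.018 after quantile normalization and -0.0021 after median centring, and Vcp at 0.010 after quantile normalization. The count of ER genes above wild type in both arrays was 7 at a minimum mean of 7, where 20 were tested, and 7 without _s_at and _x_at probe sets; the cause of the latter was not tested. With no filter 1 ER gene, Atf6, had an unadjusted p under 0.05. With 1 null array left out, which leaves no test, 16 to 19 ER genes lay above and 14 to 17 below wild type, and the median was -0.0075 to 0.033. Over all genes, an unadjusted p under 0.05 was reached by 734 with no filter, 379 when probe sets were averaged and 124 at the higher minimum. There, 6 lay 2-fold above and 5 2-fold below, where fewer genes were tested. With 1 null array left out these counts were 38 to 130 and 42 to 164. Of 189 counts and medians of the further lists, 167 stayed within 1.5 times or within the spread between the null arrays. No paired analysis was possible because there is 1 wild type array, so the groups share fewer than 2 replicate numbers.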
